A study of Mus musculus with 6 samples.

Results

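The genes described here encode the proteins of the mitochondrial ribosome. They were taken by name: every gene whose probe sets carry a single platform symbol made of Mrpl or Mrps and a number, with the probe set of the highest mean kept for each gene. This gave 77 of the 19938 genes measured, 48 named for the large subunit (Mrpl) and 29 for the small subunit (Mrps). The cells were CCR6+ ILC3s, group 3 innate lymphoid cells that bear the chemokine receptor CCR6, sorted from the lamina propria of the small intestine of adult C57BL/6 mice. The RANKL-deficient group (3 arrays) carried floxed alleles of Tnfsf11, the gene for the cytokine RANKL, and a Cre. The control group (Tnfsf11fl/fl, 3 arrays) carried the same floxed alleles, and its labels name no Cre, so an effect of Cre and one of the deletion cannot be told apart. The deletion need not be limited to the CCR6+ cells that were sorted. Separate mice are not named for the samples within a group, so p-values measure only the spread among these samples, and that spread can be technical.

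Mitochondria keep a small genome of their own and translate its few messenger RNAs, all for subunits of the respiratory chain and the ATP synthase, on a dedicated ribosome. Its RNAs are made inside the organelle, but all of its proteins are encoded in the nucleus, made in the cytosol and imported. Some of these proteins descend from the bacterial ancestor and others were added in the mitochondrion. The small subunit reads the messenger while the large subunit joins the amino acids and feeds the new chain into the inner membrane. Lymphocytes are known to build up this machinery when they are activated and divide.

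Certain letters, which the choice by name did not use, stood more often in promoters of these genes than in those of all genes. None of them stood in most of the members. RefSeq promoter windows (GRCm38.p6, 250 bases before to 50 after the start site) were found by symbol for 68 of the 77 genes. On either strand, the letters CCGGAAG, the core bound by ETS factors such as GABP, stood in 36.8% of these genes, against 9.93% of the 27025 genes in the promoter table. The letters GCGCATGCG, the core bound by NRF1, stood in 10.3% of the mitoribosomal genes, against 1.95% of all. With any base in the middle (GCGCNTGCG, which takes in GCGCATGCG), the shares were 26.5%, against 7.12%. The letters AAGATGGC, bound by YY1, stood in 17.6%, against 3.19%. YY1 letters stood in 6 of 26 small subunit genes (23.1%) and 6 of 42 large subunit genes (14.3%). For ETS letters these counts were 11 (42.3%) and 14 (33.3%). The letters GCGCATGCG stood in 1 small subunit gene (3.85%) and 6 large subunit genes (14.3%). The counts are small, and the gaps between the subunits were not tested. No share was taken over genes of similar level, so the excess over all genes cannot be called particular to the mitoribosomal genes. A match of letters is a description and shows no binding.

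The 100 bases before the start site are printed for the 8 genes whose groups did not overlap (10.4% of members, against 14.4% of all genes), to show these letters in place. Capitals mark CCGGAAG, GCGCNTGCG or their reverse complements, which overlap in Mrpl9. Mrps6, the gene with the smallest p of the family, holds none of them in this stretch, nor do Mrps18c and Mrpl39, whose windows hold ETS letters (Mrps18c) and NRF1 letters (Mrpl39) further upstream.
Mrps6, chr16:92058236-92058335, plus strand: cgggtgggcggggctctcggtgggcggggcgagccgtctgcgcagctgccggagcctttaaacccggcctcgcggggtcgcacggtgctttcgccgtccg
Mrps18c, chr5:100798659-100798758, plus strand: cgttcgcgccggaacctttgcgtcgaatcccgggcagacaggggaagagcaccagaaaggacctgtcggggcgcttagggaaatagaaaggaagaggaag
Mrpl3, chr9:105053168-105053267, plus strand: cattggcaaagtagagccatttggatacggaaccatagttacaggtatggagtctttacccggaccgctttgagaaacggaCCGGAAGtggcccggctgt
Mrpl34, chr8:71464826-71464925, plus strand: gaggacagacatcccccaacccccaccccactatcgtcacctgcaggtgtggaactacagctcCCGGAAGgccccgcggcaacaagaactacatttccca
Mrpl17, chr7:105811088-105811187, minus strand: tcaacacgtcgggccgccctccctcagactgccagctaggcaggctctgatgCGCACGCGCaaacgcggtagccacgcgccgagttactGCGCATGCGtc
Mrpl9, chr3:94443236-94443335, plus strand: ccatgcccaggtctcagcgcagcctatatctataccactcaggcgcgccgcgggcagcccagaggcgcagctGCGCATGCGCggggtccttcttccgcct
Mrpl39, chr16:84735245-84735344, minus strand: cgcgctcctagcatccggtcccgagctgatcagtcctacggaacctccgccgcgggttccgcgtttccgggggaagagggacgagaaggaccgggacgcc
Mrpl52, chr14:54426809-54426908, plus strand: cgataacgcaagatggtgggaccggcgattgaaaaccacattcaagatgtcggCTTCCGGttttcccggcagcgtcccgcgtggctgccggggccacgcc
In this stretch Mrpl3, Mrpl34 and Mrpl52 hold ETS letters, and Mrpl17 and Mrpl9 hold NRF1 letters. Mrpl3, Mrpl34 and Mrpl17 had higher values in RANKL-deficient cells and Mrpl9 and Mrpl52 lower ones, so both kinds of letters occur before genes that differed in opposite directions.

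The arrays themselves set limits on these values. The medians of the RANKL-deficient arrays ran from 5.07 to 5.10 on the log2 scale and those of the control arrays from 5.12 to 5.15. The mean correlation of an array with the other 5 was 0.960 for control array 1 and 0.970 for control array 2, and 0.975 to 0.977 for the remaining arrays. The mean log2 level of 10 ILC3 markers was 9.95 to 10.04 on RANKL-deficient and 9.58 to 10.04 on control arrays, with 6 genes higher and 4 lower in RANKL-deficient cells and a median difference of 0.12. Among the higher ones, Thy1 measured 12.40 ± 0.05 in RANKL-deficient and 12.18 ± 0.13 in control cells (SD, n = 3 each, as for the next genes). Il17a measured 6.86 ± 0.12 in RANKL-deficient and 6.52 ± 0.58 in control cells. Ccr6 measured 9.45 ± 0.15 in RANKL-deficient and 9.13 ± 0.62 in control cells. The 4 lower ones were Gata3 (−0.092), Il17f (−0.076), Kit (−0.030) and Il7r (−0.024). Tnfsf11 measured 8.51 ± 0.15 in RANKL-deficient and 8.47 ± 0.26 in control cells (SD, n = 3 each), and since its probe set has no stated place relative to the floxed exons, the labels could not be checked with it. The mean log2 level of 8 T cell markers was 5.14 to 5.41 on RANKL-deficient and 5.28 to 5.63 on control arrays, and that of 5 B cell markers was 4.35 to 4.48 on RANKL-deficient and 4.50 to 4.71 on control arrays. Single T cell markers differed in opposite directions, with Cd3g at −1.91 (SE 0.43), Cd3e at −0.70 (SE 0.31) and Cd4, which ILC3s can express too, at 0.69 (SE 0.21). The groups did not overlap for Cd3g and Cd4, and none of the 3 passed the adjusted threshold. For 7 myeloid markers it was 4.75 to 5.44 on RANKL-deficient and 5.36 to 5.41 on control arrays, and for 8 epithelial markers 4.98 to 5.91 on RANKL-deficient and 5.55 to 5.71 on control arrays. For 6 stromal and endothelial markers it was 5.84 to 6.08 on RANKL-deficient and 6.06 to 6.22 on control arrays. Their part in the results below was not tested. In RNA from many cells, fewer cells of a type and less RNA per cell cannot be told apart.

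The contrast of RANKL-deficient and control cells asks which transcripts differ in ILC3s in which Tnfsf11 was targeted. Of the 77 mitoribosomal genes, 52 had a higher and 25 a lower mean in RANKL-deficient cells, with a median log2 difference of 0.12. Over all genes, 39.5% had a higher mean and the median was −0.054. No mitoribosomal gene passed the adjusted threshold of 0.05 (limma, adjusted over all genes), where 0.00502% of all genes did, a single gene. At an unadjusted p under 0.05 there were 4 members higher, or 5.19%, against 4.25% of all genes, and 1 member lower, or 1.30%, against 3.9% of all genes. These shares lie near or below those of all genes. Among all genes of the highest of 4 bins by mean value, where most members lie, 9.83% were higher at that p and 3.73% lower.

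The level of a gene bears on these counts. When all genes were placed in 4 equal bins by mean value, 59 members fell in the highest bin and 18 in the next. In the highest bin, the members' median difference was 0.10, and that of all 4985 genes in it was 0.080. There, 66.1% of members and 61% of all genes had a higher mean in RANKL-deficient cells. In the next bin the members' median was 0.17, against −0.011 for all genes, with 72.2% of members and 48.4% of all genes higher.

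**Figure D1:**
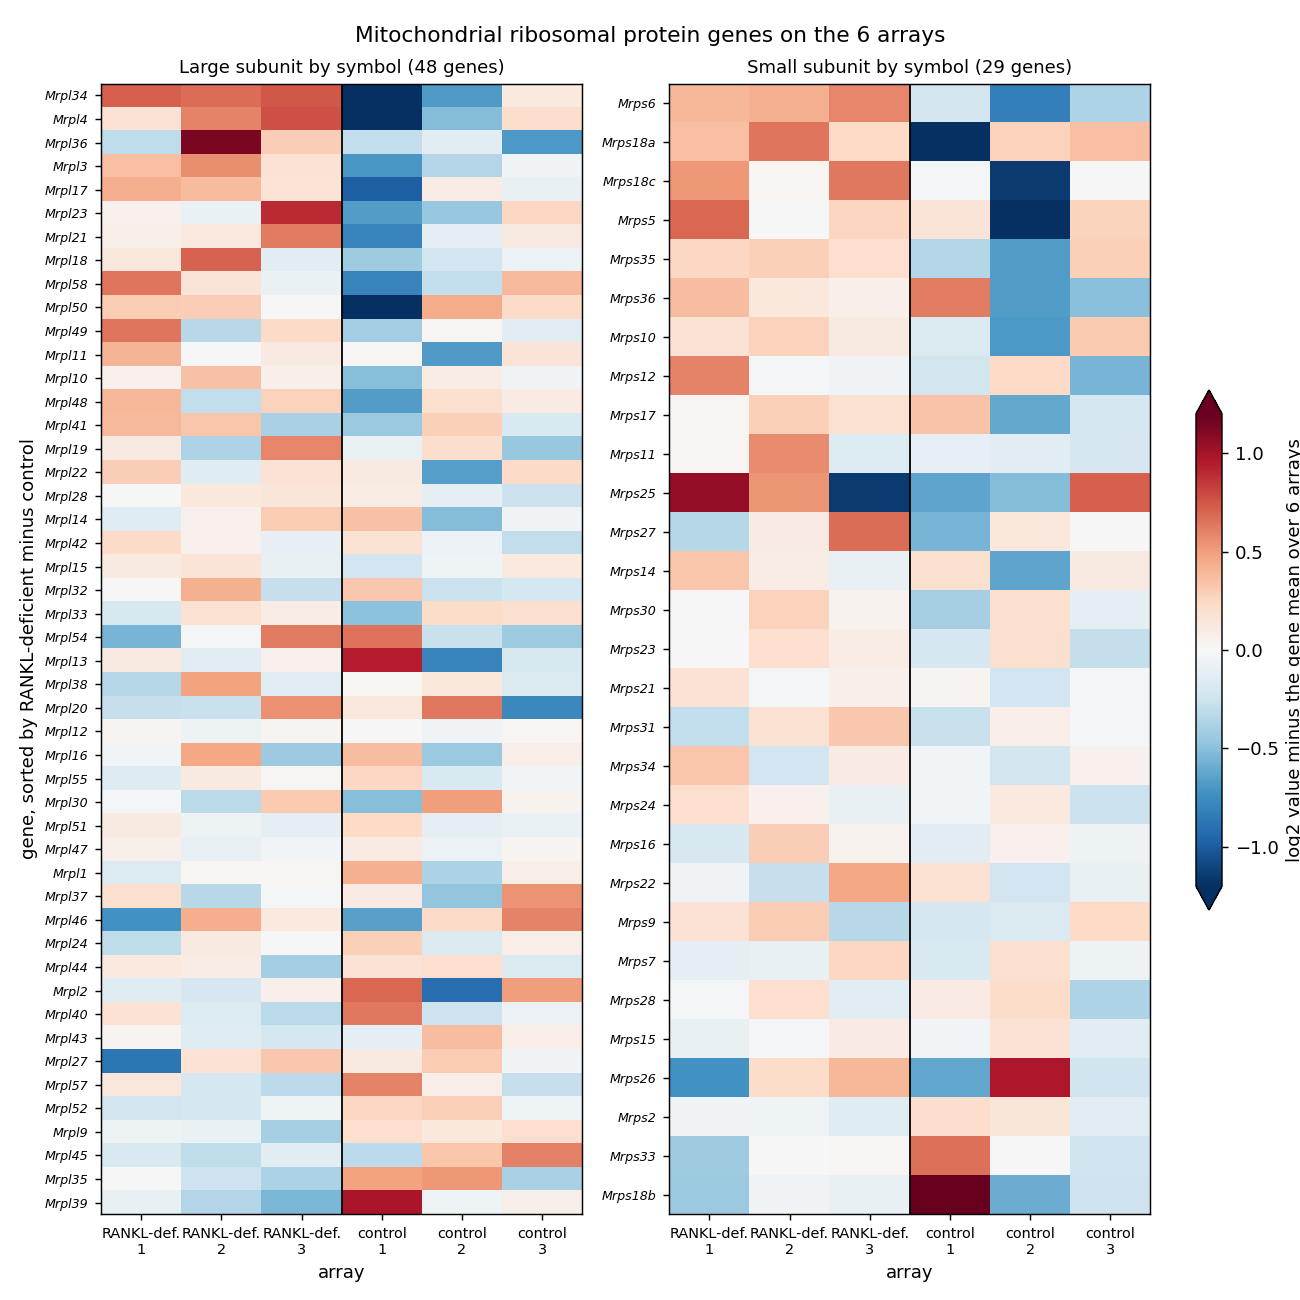
Log2 value of each mitoribosomal gene minus its own mean over the 6 arrays (colour scale in log2 units, clipped at the ends), with 1 row per gene sorted by the difference and 1 column per array, RANKL-deficient arrays left of the black line. Genes at the top of each panel are high on the RANKL-deficient arrays, while strong colour is most frequent in control columns 1 and 2, where 25 and 21 genes lay more than 0.5 from their own mean, against 8 to 12 on each other array.

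The small subunit genes had the more one-sided differences. Of the 29, 24 had higher means in RANKL-deficient cells (82.8%), with a median log2 difference of 0.19 and quartiles of 0.094 and 0.36. Of the 48 large subunit genes, 28 had higher means (58.3%), with a median of 0.031 and quartiles of −0.12 and 0.32. The large subunit held the wider range, from −0.66 (Mrpl39) to 1.43 (Mrpl34), against −0.38 (Mrps18b) to 0.94 (Mrps6) in the small subunit. The difference between the subunit medians, large minus small, was −0.16. It was −0.056 without control array 1, −0.083 without RANKL-deficient array 2, −0.098 without RANKL-deficient array 1 and −0.068 with array weights. It is a description of these genes and was not tested.

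Array by array, each gene was set against its own mean over the 6 arrays and the median was taken over the subunit. For the small subunit this median was 0.027, 0.13 and 0.092 on the RANKL-deficient arrays, against −0.10, −0.13 and −0.090 on the control arrays. All RANKL-deficient arrays thus lay above all control arrays. For the large subunit it was 0.054, 0.034 and 0.029 on the RANKL-deficient arrays, against 0.057, −0.071 and −0.0021 on the control arrays. Here the groups overlapped, since control array 1 was the highest of the 6. The highest of the 4 bins of all genes had 0.035, 0.063 and 0.031 on RANKL-deficient arrays, against −0.13, −0.027 and 0.042 on control arrays.

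**Figure D2:**
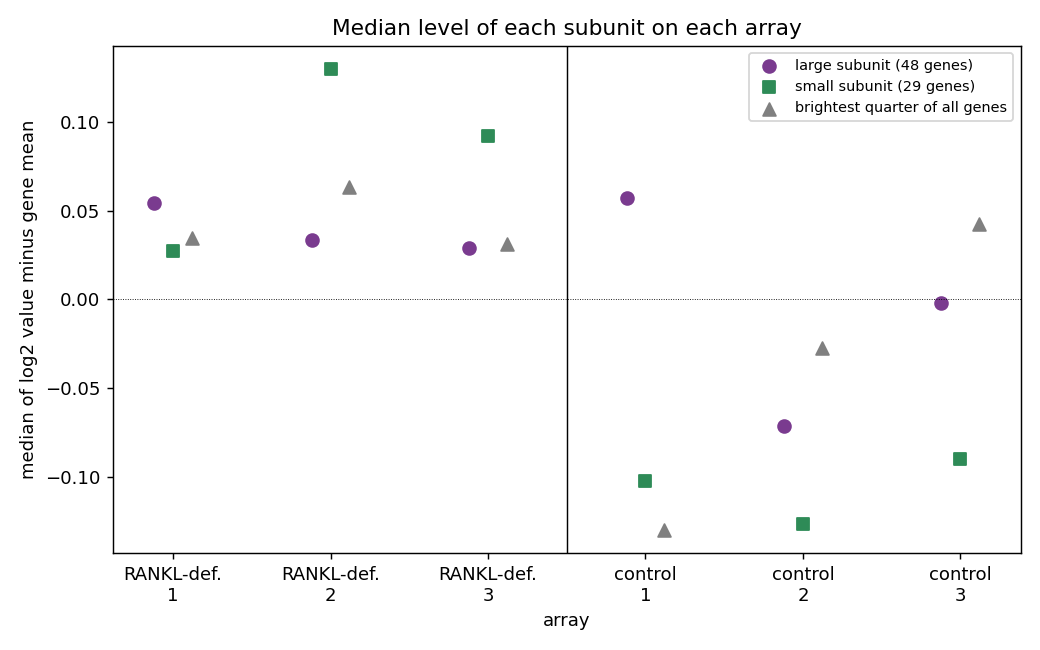
Median, over the genes of a set, of the log2 value minus the gene's own mean over the 6 arrays (vertical axis, log2 units), for each array (horizontal axis, RANKL-deficient left of the line). Circles are the 48 large subunit genes, squares the 29 small subunit genes and triangles all genes of the highest of 4 bins by mean value. The small subunit squares of the RANKL-deficient arrays lie above 0 and those of the control arrays below it, while large subunit circles of both groups overlap.

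The sign of the large subunit median depended on the scaling. It was −0.021 after quantile normalization and −0.044 after cyclic loess. It was −0.0097 without control array 2 and 0.085 without control array 1. The small subunit median was above 0 under each scaling and each left-out array, from 0.097 after quantile normalization to 0.23 after median centring. Of all members, 44 had higher means after quantile normalization and 45 after cyclic loess, or 57.1% and 58.4%, against 42.6% and 49.6% of all genes. After median centring 57 had higher means, or 74.0%, against 46.9% of all genes, and as deposited the share was 67.5%, against 39.5%. Without control arrays 1 and 2, the small subunit median was 0.11 and the large subunit median 0.037.

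**Figure D3:**
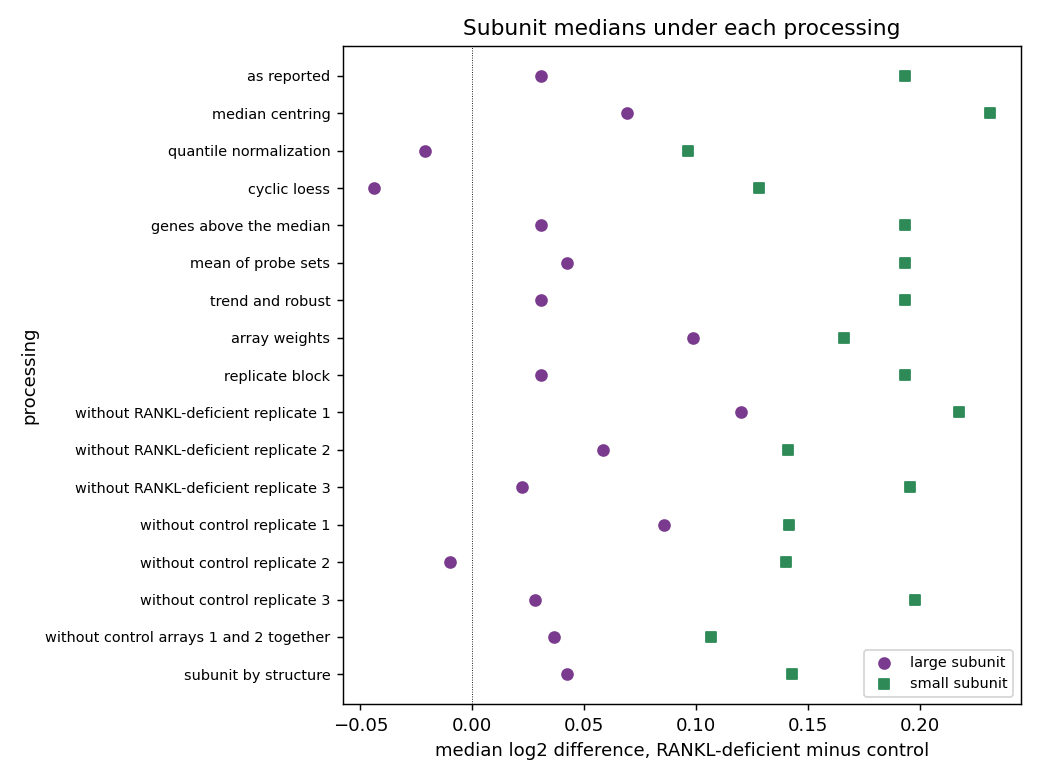
Median log2 difference, RANKL-deficient minus control, of the large subunit (circles) and the small subunit (squares), under each processing listed on the vertical axis. The squares stay right of 0 in every line, from 0.097 to 0.23, and lie right of the circle of the same line. The circles lie left of 0 after quantile normalization, after cyclic loess and without control replicate 2.

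Subunit names do not always give the place of a protein. Structures of the mammalian mitoribosome place Mrps18a and Mrps30 in the large subunit, and Mrps36 is a subunit of the 2-oxoglutarate dehydrogenase complex. Mrps18a had 8.05, 8.34 and 7.93 on RANKL-deficient arrays, against 5.81, 7.97 and 8.05 on control arrays. Control array 1 stood far below the rest, and the difference of 0.83 was 0.096 without it. Mrps30 measured 6.25 ± 0.15 in RANKL-deficient and 6.04 ± 0.30 in control cells, and Mrps36 measured 7.60 ± 0.16 in RANKL-deficient and 7.23 ± 0.70 in control cells (SD, n = 3 each). The difference was 0.063 for Mrps30 without control array 1, and 0.13 for Mrps36 without control array 2. With the first 2 counted in the large subunit and Mrps36 left out, the medians were 0.042 for 50 large subunit genes and 0.14 for 26 small subunit genes.

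Within the large subunit, genes whose protein has a bacterial counterpart had a higher median difference than those whose protein is found in mitochondria only. This split was described on the deposited values alone and was not repeated under the other scalings or without single arrays. The 29 genes with a counterpart had a median difference of 0.12, with 20 higher and 9 lower in RANKL-deficient cells. The 19 genes without one had a median of −0.035, with 8 higher and 11 lower. In the small subunit by name both kinds had close medians, at 0.19 for the 16 genes with a counterpart and 0.19 for the 11 without one. Those without one include Mrps30 and Mrps36, which are not small subunit proteins by structure. Mrps18a and Mrps18b, relatives of Mrps18c, were counted in neither kind. The gene with the highest difference in each subunit, Mrpl34 and Mrps6, has a bacterial counterpart. So do 29 of the 48 large subunit genes and 16 of the 29 small subunit genes. None of these gaps was tested.

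**Figure D4:**
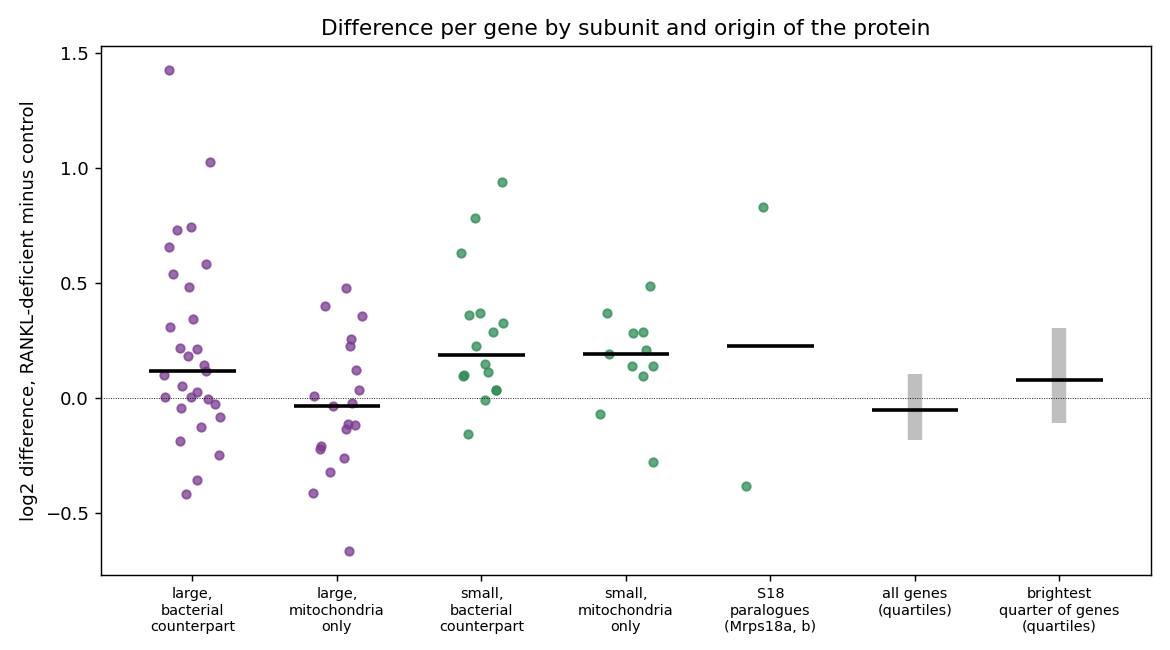
Log2 difference, RANKL-deficient minus control, of each mitoribosomal gene (points) by subunit and by whether its protein has a bacterial counterpart, with the median as a black bar. Grey bars give the quartiles of all genes and of the highest of 4 bins by mean value. Subunits are by name, and Mrps18a and Mrps18b form a group of their own. The 19 large subunit genes known in mitochondria only have their median below 0, at −0.035, and the other groups of mitoribosomal genes above it.

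In the small subunit, Mrps6 had the smallest p of the family. It is the counterpart of bacterial S6, a protein of the platform that binds ribosomal RNA together with S18. Its log2 value was 9.10, 9.13 and 9.29 on RANKL-deficient arrays, against 8.48, 7.88 and 8.33 on control arrays. All RANKL-deficient arrays lay above all control arrays, as for 5.28% of all genes. The difference was 0.94 (SE 0.18, 1.92-fold), and it did not pass (limma adjusted p = 0.327). It ranged from 0.76 to 1.07 over the alternatives, with adjusted p from 0.181 to 0.816. Overlap with another gene is not particular to Mrps6, since it holds for 24 of the 77 members, 19 with another protein-coding gene. The locus of Mrps6 overlaps that of Slc5a3, a myo-inositol transporter, which had a lower mean in RANKL-deficient cells (−0.50). Slc5a3 had 4.94, 5.07 and 4.42 on RANKL-deficient arrays, against 4.99, 6.11 and 4.83 on control arrays. Its groups thus overlapped, and control array 2 stood well above the rest. 

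Mrps18c, the counterpart of S18 itself, also had groups that did not overlap, if by little. It measured 9.31, 8.82 and 9.42 on RANKL-deficient arrays, against 8.77, 7.64 and 8.80 on control arrays. The lowest RANKL-deficient array exceeded the highest control array by a small margin, and control array 2 stood far below the rest. The difference was 0.78 (SE 0.34, limma adjusted p = 0.611), and 0.40 without control array 2. Mrps18b, a relative whose protein sits in the small subunit at another place, had 5.90, 6.31 and 6.26 on RANKL-deficient arrays, against 7.77, 5.75 and 6.09 on control arrays. Its mean difference of −0.38 turned to 0.23 without control array 1, where Mrps18c and Mrps18a had higher means too.

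In other small subunit genes the control arrays disagreed among themselves. Mrps35, found in mitochondria only, had 6.99, 7.03 and 6.95 on RANKL-deficient arrays, against 6.39, 6.08 and 7.03 on control arrays. Control array 3 thus matched the RANKL-deficient arrays, and the difference of 0.49 (SE 0.24) was 0.27 without control array 2. Mrps10, the counterpart of S10 in the head of the subunit, had 6.61, 6.71 and 6.55 on RANKL-deficient arrays, against 6.27, 5.74 and 6.75 on control arrays. Control array 3 was again the highest of the controls, and the difference of 0.37 was 0.12 without control array 2. Mrps5, the counterpart of S5 near the entry of the messenger, had 7.73, 7.04 and 7.30 on RANKL-deficient arrays, against 7.20, 5.68 and 7.31 on control arrays. Its difference of 0.63 was 0.11 without control array 2.

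Lower means were few and small in this subunit. Mrps2, the counterpart of S2, measured 7.13 ± 0.06 in RANKL-deficient and 7.29 ± 0.18 in control cells, and Mrps33, found in mitochondria only, measured 8.98 ± 0.25 in RANKL-deficient and 9.25 ± 0.47 in control cells (SD, n = 3 each). Without control array 1 the difference was −0.088 for Mrps2 and −0.016 for Mrps33. Mrps26 had a difference of −0.070 (SE 0.46), and its values ran from 6.68 to 7.80 on RANKL-deficient and from 6.78 to 8.37 on control arrays. Mrps25 scattered widely in both groups, at 7.18, 6.65 and 4.97 on RANKL-deficient arrays, against 5.49, 5.61 and 6.84 on control arrays, so no order of the groups can be read from it. Mrps21, the counterpart of S21, measured 10.12 ± 0.10 in RANKL-deficient and 9.97 ± 0.14 in control cells, and Mrps27 measured 5.50 ± 0.51 in RANKL-deficient and 5.22 ± 0.37 in control cells (SD, n = 3 each). Without control array 2 the Mrps21 difference was 0.068, and without RANKL-deficient array 3 that of Mrps27 was 0.019. Values of different probe sets are not comparable with each other, since probes differ in brightness.

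In the large subunit, Mrpl34 had the greatest difference of all members. It is the counterpart of L34, a short basic protein of the subunit core. Its log2 value was 7.78, 7.74 and 7.81 on RANKL-deficient arrays, against 5.49, 6.38 and 7.18 on control arrays. The RANKL-deficient arrays lay within a narrow range above all controls, and the controls spread widely. The difference was 1.43 (SE 0.38, 2.69-fold, limma adjusted p = 0.447). Without control array 1 it was 1.00, and against control array 3 alone it was 0.60.

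Mrpl3 and Mrpl4, counterparts of L3 and L4, lie near the catalytic centre and along the exit tunnel of the bacterial ribosome. Mrpl3 had 7.49, 7.69 and 7.30 on RANKL-deficient arrays, against 6.42, 6.78 and 7.09 on control arrays. These groups did not overlap, and the difference was 0.73 (SE 0.20, limma adjusted p = 0.461). Mrpl4 had 7.65, 8.07 and 8.25 on RANKL-deficient arrays, against 6.25, 6.96 and 7.68 on control arrays. Its groups overlapped by a hair, at RANKL-deficient array 1 and control array 3, and the difference was 1.03 (SE 0.36). It was 0.67 without control array 1 and 0.31 against control array 3 alone. For Mrpl34, Mrpl3 and Mrpl4 alike, control array 1 was the lowest of the 6 and control array 3 the highest of the controls.

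Mrpl17, the counterpart of L17 at the exit of the tunnel, had 6.74, 6.68 and 6.46 on RANKL-deficient arrays, against 5.32, 6.39 and 6.21 on control arrays. The groups did not overlap, and the difference of 0.65 was 0.33 without control array 1. Mrpl18, the counterpart of L18, measured 8.42 ± 0.43 in RANKL-deficient and 7.94 ± 0.18 in control cells (SD, n = 3 each), and its difference of 0.48 was 0.25 without RANKL-deficient array 2. Mrpl36, the counterpart of L36, measured 8.62 ± 0.72 in RANKL-deficient and 7.87 ± 0.29 in control cells, with RANKL-deficient array 2 at 9.38 well above the rest and a difference of 0.37 without it.

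Of the large subunit genes, 3 had every RANKL-deficient value below every control value, as did 9.08% of all genes. Mrpl9, the counterpart of L9, had 7.33, 7.31 and 6.99 on RANKL-deficient arrays, against 7.59, 7.51 and 7.59 on control arrays. Its control arrays lay close together, and the difference was −0.36 (SE 0.14, limma adjusted p = 0.599). Mrpl39, found in mitochondria only, had 8.89, 8.63 and 8.43 on RANKL-deficient arrays, against 9.96, 8.93 and 9.05 on control arrays. The difference of −0.66 (SE 0.29, limma adjusted p = 0.614) was −0.34 without control array 1, which stood above all others. Mrpl52, also found in mitochondria only, had 8.90, 8.91 and 9.07 on RANKL-deficient arrays, against 9.37, 9.41 and 9.07 on control arrays. RANKL-deficient array 3 and control array 3 nearly met, and the difference was −0.32 (SE 0.14, limma adjusted p = 0.615).

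**Figure D5:**
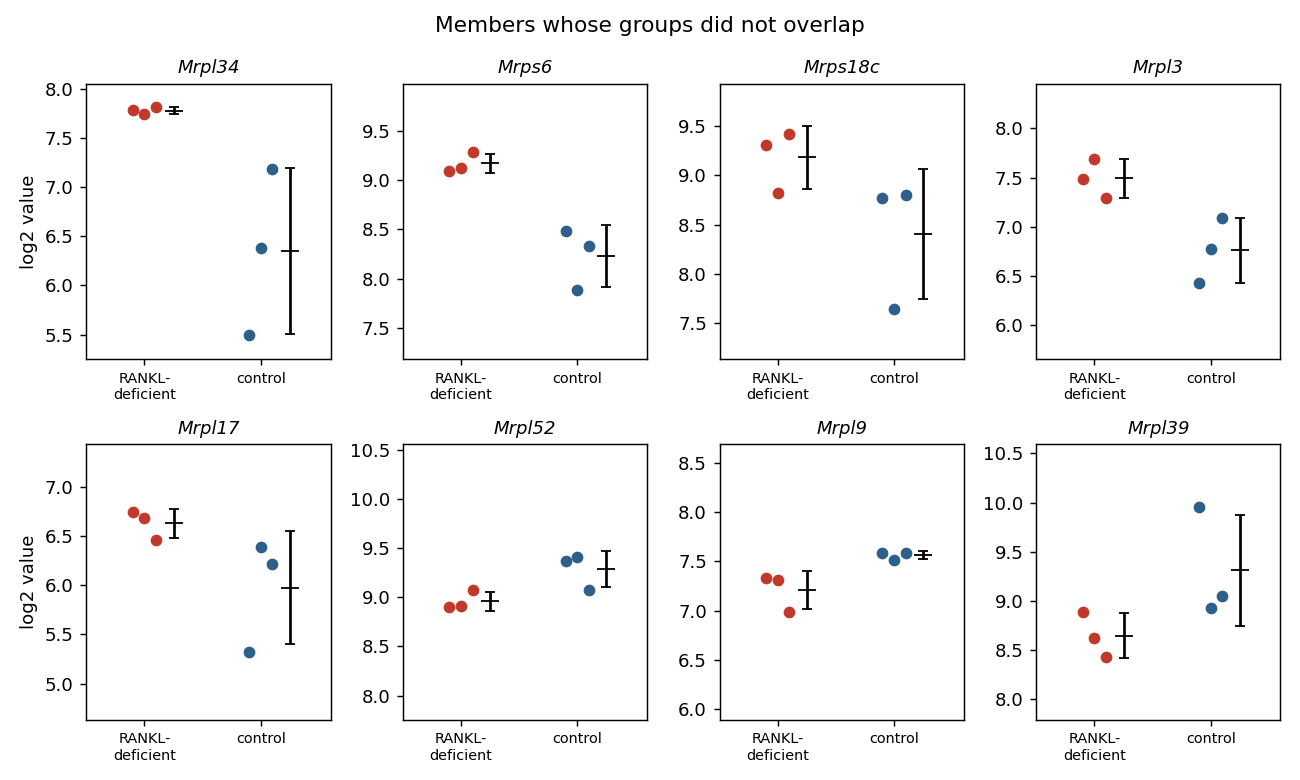
Log2 value on each array (points) of the 8 members whose groups did not overlap, RANKL-deficient left and control right in each panel, with the group mean and SD beside the points (n = 3 each). Every panel spans the same height on the log2 axis. The 5 genes with higher RANKL-deficient values come first and the 3 with lower values last, and in most panels the control points are spread more widely.

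Mrpl45, which anchors the ribosome to the inner membrane at the tunnel exit, measured 5.99 ± 0.09 in RANKL-deficient and 6.40 ± 0.47 in control cells (SD, n = 3 each). Control array 1, at 5.88, was the lowest of the 6, and the difference of −0.41 was −0.67 without it and −0.22 without control array 3. Mrpl51 differed by −0.035 (SE 0.15) and Mrpl41 by 0.23 (SE 0.27), with a range for Mrpl41 of 0.061 to 0.47 without single arrays. Mrpl22, a counterpart of L22 in the wall of the tunnel, differed by 0.21 (SE 0.26), and Mrpl33 by 0.051 (SE 0.22). The 95% confidence interval of the difference ran from −0.39 to 0.82 for Mrpl22 and from −0.47 to 0.57 for Mrpl33. Mrpl12, the stalk protein that recruits translation factors and was named after its values were seen, had 7.85, 7.76 and 7.85 on RANKL-deficient arrays, against 7.83, 7.78 and 7.85 on control arrays. Its 95% interval was −0.26 to 0.27.

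There were 8 members with more than 1 probe set, Mrpl23, Mrpl27, Mrpl41, Mrpl47, Mrpl51, Mrps5, Mrps33 and Mrps36. Their probe sets were read from the same RNA on the same arrays, so agreement between them cannot check the group difference. The probe sets of Mrpl47 disagreed most, with a difference of −0.043 on the one used and −0.92 on the other, which had 6.03, 5.74 and 4.84 on RANKL-deficient arrays, against 7.10, 6.55 and 5.72 on control arrays. Mrps5 gave 0.63 and 0.89, Mrps36 gave 0.37 and 0.43, Mrpl23 gave 0.58 and 0.54, and Mrpl41 gave 0.23 and 0.18. Mrps33 gave −0.28 and −0.22, Mrpl27 gave −0.25 and −0.036, and Mrpl51 gave −0.035 and 0.17. For all of these but Mrpl47, the annotation lists a RefSeq transcript that both probe sets share. Those transcripts do not tell a gene from a processed copy of it. The probe set kept, that of the highest mean, may thus read a copy.

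The control arrays scattered more than the RANKL-deficient ones in these genes as in others. The median SD of a member was 0.22 in RANKL-deficient and 0.40 in control cells, and the control SD was the larger one in 54 of 77 members (70.1%). Over all genes the control SD was the larger one in 66.4%, and in the highest bin in 70.5%. Control array 1 was the lowest of the 6 arrays for 21 members and the highest for 17, and control array 2 was the lowest for 20.

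The other genes of mitochondrial translation were described from lists. None of them passed the adjusted threshold in either direction. Of 15 translation factors, 5 had higher and 10 lower means in RANKL-deficient cells, with a median difference of −0.020. The factors with the smallest p were Gfm2, an elongation factor G that acts in recycling (−0.30), and Mtrf1l, a release factor (−0.29). These differences were −0.12 for Gfm2 without RANKL-deficient array 3 and −0.055 for Mtrf1l without RANKL-deficient array 1. Of 27 genes of mitoribosome assembly and rRNA modification, 17 had higher and 10 lower means, with a median of 0.068. Eral1, a chaperone of the small subunit rRNA, differed by 0.72 (SE 0.31), and Afg3l2, a protease of the inner membrane that matures Mrpl32, by 0.84 (SE 0.38). Without control array 1, the Afg3l2 difference was 0.43.

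Upstream and downstream of the ribosome, the counts were as follows, and no gene in these lists passed the adjusted threshold. Of 14 genes of mitochondrial DNA maintenance and transcription, 6 had higher and 8 lower means (median −0.048), and the RNA polymerase gene Polrmt differed by −0.23 and Ssbp1, which coats single-stranded mitochondrial DNA, by 0.23. Of 16 mitochondrial aminoacyl tRNA synthetases, 6 had higher and 10 lower means (median −0.083). Among them, Sars2 differed by 0.84 and Vars2 by −0.46, while Sars2 differed by 0.50 without RANKL-deficient array 1 and Vars2 by −0.30 without control array 1. Of 10 nuclear regulators of mitochondrial genes, 7 had higher and 3 lower means (median 0.073). Myc, a transcription factor of growing cells, had 6.76, 7.30 and 6.75 on RANKL-deficient arrays, against 5.54, 6.71 and 5.94 on control arrays. Gabpa, the DNA-binding chain of GABP, differed by 0.37 (SE 0.27), and by 0.19 without RANKL-deficient array 3.

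The respiratory chain and ATP synthase list, whose core subunits the mitoribosome makes, was more one-sided than the mitoribosome. Of its 25 nuclear-encoded genes, 23 were higher in RANKL-deficient cells, with a median of 0.17. Over all genes 39.5% had a higher mean, and 61% did in the highest of 4 bins by mean value. The mean level of the list was 9.21 to 9.25 on RANKL-deficient and 8.90 to 9.14 on control arrays. Atp5d, a subunit of the ATP synthase, differed by 1.10 (SE 0.32) and Sdhb, a subunit of complex II, by 0.66 (SE 0.20). Of 60 cytosolic ribosomal protein genes, 40 had higher and 20 lower means, with a median of 0.052. Among them, Rps2 differed by 0.82 (SE 0.17) and Rpl39l, a paralog of Rpl39, by −1.56 (SE 0.28). The difference was 0.67 for Rps2 without control array 1 and −1.33 for Rpl39l without control array 2. Of 21 cell cycle genes, 18 had higher and 3 lower means, with a median of 0.30. Among its replication helicase genes, the difference was 0.83 for Mcm4 (SE 0.18) and 0.87 for Mcm3 (SE 0.21). Without control array 1 it was 0.68 for Mcm4 and 0.65 for Mcm3. No gene in the respiratory chain, cytosolic ribosome or cell cycle list passed the adjusted threshold. For the genes named from them, the limma adjusted p ran from 0.306 (Rpl39l) to 0.519 (Sdhb). These lists share the arrays with the mitoribosomal genes, and the gaps between them were not tested. Of the 5 further mitoribosome proteins listed without an Mrp name, 4 were measured, 1 higher and 3 lower, with Chchd1 at −0.32 and Ptcd3 at 0.26. Chchd1 was at −0.075 without RANKL-deficient array 2, and Ptcd3 turned to −0.26 without control array 1.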

How the data were processed

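Total RNA of the 6 samples was amplified from 2 ng and hybridised to Affymetrix mouse gene arrays, 1 array per sample, per the labels' protocols. The authors deposited log2 values for 35556 probe sets. Per the submitters' processing notes, Affymetrix Expression Console and RMA were used. The sources used here give no version, setting or genome build. RMA scales the arrays toward 1 distribution, so a shift of all genes could be hidden. The deposited values still differed in spread, with an SD over genes of 1.86 on control array 1 and 1.93 on control array 2. On the remaining arrays it was 1.99 to 2.01. Depth does not apply to arrays, and their number limits the precision.

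By the platform annotation, 21789 probe sets had 1 symbol, 1621 several and 12146 none. Symbols were updated by Entrez identifier against RefSeq (GRCm38.p6), which matched 19855 of 19938 genes. Probe sets with several symbols were left out. Bacterial counterparts and structural places are background knowledge. The groups were compared in limma 3.58.1 under R 4.3.3 (lmFit, eBayes, two-sided, no block, no filter), with Benjamini-Hochberg adjustment over all genes. The procedure was tested on simulated data with independent noise of equal spread in both groups. The control arrays here scattered more than the RANKL-deficient ones, which that simulation does not cover. Subunits and lists were described by counts and medians, with no test.

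Members named: in each subunit the 6 higher and 4 lower with the smallest p, the 2 with the highest and the 2 with the lowest mean, those with a special structural place, and those whose probe sets differ by over 0.5; of each list, the 2 with the smallest p. Any other is said to be named after its values were seen. The planned comparison of protein sequences was not run. The members and lists were chosen with earlier results of these data known. Alternatives were 3 scalings, a filter on dim genes, the mean of probe sets, 2 variance models, a replicate block, left-out arrays and subunits by structure. The Cre driver and 1 marker gene are not reported here.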

Additional observations from a re-analysis of the deposited data

How the results depend on the processing

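No mitoribosomal gene passed the adjusted threshold under any of the 15 alternative fits (limma), while 3 to 10 members were higher and 0 to 3 lower at an unadjusted p under 0.05. Without control arrays 1 and 2 together, 1 control array is left and is assumed to vary like the RANKL-deficient arrays. The cause of the changes below was not tested. Over all genes, 1 gene passed as reported, 2 with trend and robust options, and 0 with the replicate block, without control arrays 1 and 2 together, or with all probe sets tested, and 0 to 1 without single arrays. The replicate numbers did not pair the samples (correlations of deviations −0.023, 0.050 and 0.027), and the replicate block gave 8 members higher at an unadjusted p under 0.05, against 4 without it. The median difference of all members, 0.12 as reported, was 0.15 with median centring, 0.042 with quantile normalization, 0.055 with cyclic loess, 0.094 without control arrays 1 and 2, and 0.11 to 0.13 without single arrays. The large subunit median, 0.031, was −0.021 with quantile normalization, −0.044 with cyclic loess, 0.098 with array weights, and −0.0097 to 0.12 without single arrays. The small subunit median, 0.19, was 0.097 with quantile normalization, 0.13 with cyclic loess, 0.11 without control arrays 1 and 2, 0.14 with subunits by structure, and 0.14 to 0.22 without single arrays. Large minus small, −0.16, was −0.068 with array weights, −0.070 without control arrays 1 and 2, −0.10 with subunits by structure, and −0.17 to −0.056 without single arrays.

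Of the 30 named members, 20 had the same sign under all 15 alternatives. Without control arrays 1 and 2, the sign turned for Mrpl22 (−0.12), Mrpl33 (−0.17), Mrpl51 (0.059), Mrps10 (−0.13), Mrps18b (0.063), Mrps2 (0.052), Mrps25 (−0.58), Mrps26 (0.20), Mrps33 (0.10) and Mrps35 (−0.047). Mrpl51 also turned with median centring (0.0025), the mean of probe sets (0.066) and array weights (0.018), and Mrpl33 with array weights (−0.053). Without single arrays, the difference ranged from −0.063 to 0.38 for Mrpl22, −0.18 to 0.17 for Mrpl33, −0.10 to 0.074 for Mrpl51, −0.77 to 0.23 for Mrps18b, −0.17 to 0.93 for Mrps25 and −0.40 to 0.40 for Mrps26. No background level was measured, so dim probe sets could not be told from unexpressed genes.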
